A study of Mus musculus with 6 samples.

Results

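Matrix metalloproteinases (MMPs) and their tissue inhibitors (TIMPs) were examined in *Clk4*-cKO mouse hearts that received AAV NEXN-S437E, with AAV NEXN-WT as the control. The members were 10 genes, *Mmp2*, *Mmp3*, *Mmp9*, *Mmp14*, *Mmp15*, *Mmp23* and *Timp1* to *Timp4*, and every probe that the array annotation assigns to them was taken. This gave 16 of 56605 probes, for 10 of 27307 gene symbols on the array. RNA came from the myocardium of 6 male C57BL/6J mice, 3 per group, and each sample was hybridised in 1 colour to its own Agilent array. All 6 mice carried the same background. *Clk4*, which encodes a CDC-like kinase, was floxed and deleted in cardiomyocytes by a tamoxifen-inducible MerCreMer recombinase under the α-MHC promoter, and an AAV9 vector with a CMV promoter was given intravenously. The vector of one group expressed wild-type NEXN (nexilin, an actin-binding protein of the Z-disc), and that of the other NEXN-S437E, in which a glutamate in place of a serine mimics the phosphorylated protein. The labels give no age. Hearts with intact *Clk4* were not analysed here, so each value is a comparison between *Clk4*-cKO groups.

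MMPs are zinc-dependent endopeptidases that cut collagens, fibronectin, elastin and other matrix proteins outside the cell. Most are secreted as inactive precursors. The membrane-type enzymes are instead held at the cell surface, where MT1-MMP, the product of *Mmp14*, activates the MMP-2 precursor with TIMP-2 as a bridge. TIMPs bind the active site of MMPs and block it. In the heart, cardiac fibroblasts are a main source of MMP-2 and TIMP-1, TIMP-3 also inhibits enzymes of the ADAM and ADAMTS families, and TIMP-4 is the inhibitor best known for its expression in heart muscle. MMP activity depends largely on activation and inhibition of the protein, which an array does not measure.

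The values below are log2 signals relative to the 75th percentile of each array, so 0 is the signal that 75% of the spots do not exceed, and 1 unit is a 2-fold difference. A level of 1 probe cannot be set against that of another, because probes differ in how well they bind. The sequences of 4 member probes are printed here with their mm9 positions, because they define which transcript was measured. Those of *Timp1*, *Mmp14* and *Mmp23* were past the study's thresholds, and that of *Timp2* is the less bright of its 2 tested probes. They are 60 bases long and printed 5′ to 3′, in the sense of the transcript, and in lower case throughout. The *Timp1* probe lies at chrX:20451675-20451733 on the plus strand and the *Mmp14* probe at chr14:55058775-55058834 on the plus strand. The *Mmp23* probe lies at chr4:155025377-155025436 on the minus strand, and the ends of the *Timp2* probe shown are far apart on the minus strand, at chr11:118171964-118178741, so that it joins separate stretches of the gene.
Timp1 probe A_52_P87713: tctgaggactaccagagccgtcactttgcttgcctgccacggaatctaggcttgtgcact
Mmp14 probe A_52_P304128: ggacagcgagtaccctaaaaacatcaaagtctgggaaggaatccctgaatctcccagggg
Mmp23 probe A_51_P502132: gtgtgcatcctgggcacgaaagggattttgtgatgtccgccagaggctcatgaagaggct
Timp2 probe A_65_P12392: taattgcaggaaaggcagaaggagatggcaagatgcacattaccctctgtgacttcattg

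With 12 of the 16 probes, 9 of the 10 genes could be tested. *Timp1*, *Mmp2*, *Mmp14* and *Mmp23* were lower in the NEXN-S437E hearts by the study's thresholds of a 2-fold change and an unadjusted p of 0.05, and no member was higher by them. These 4 were read against a background of 2.53% of the 22998 tested probes in either direction, with 1.81% lower and 0.717% higher. *Mmp14* passed the filter on dim probes only through the NEXN-WT arrays. Among the 11 member probes well above background on all 6 arrays, 3 were past the same thresholds, beside 1.65% of the 21110 such probes. No member passed an adjusted p of 0.05 in limma, which 0.170% of all tested probes did. At an unadjusted p of 0.05 alone, 7 member probes were lower (background 6.83%) and 2 higher (background 10.3%). With the slide row as a block, only NEXN-S437E replicate 1 was set against NEXN-WT, because the other NEXN-S437E hearts were in a row without NEXN-WT. No count is given for that fit. The 9 probes with an unadjusted p below 0.05 had no overlap between the groups, beside 27.5% of all tested probes (9.31% lower and 18.2% higher), and 3 probes overlapped.

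The 6 arrays were on 1 slide and between 41.9% and 47.8% of their spots were well above background. One array, NEXN-WT replicate 1, stood apart, differing from the other arrays of its own group by a mean absolute 0.41 on the log2 scale and from the NEXN-S437E arrays by 0.53, where the other 5 arrays gave 0.24 to 0.34 within their group. For 9 of the 12 member probes, this heart and the mean of the NEXN-S437E hearts lay on opposite sides of the mean of the other 2 NEXN-WT hearts. Values without it are therefore given beside the results below. Without it, *Timp1*, *Mmp2* and, by its fitted value, *Mmp14* were still past the study's thresholds (background 1.58%), and *Timp1* and *Mmp2* passed the adjusted p in limma (background 0.565%). *Mmp14* was well above background on no NEXN-S437E array, and was then known only to be at least 1.83-fold lower, short of 2-fold. The 1 tested *Clk4* probe differed by 0.13 and the 2 *Nexn* probes by 0.012 and 0.13 between the groups, all with overlap. Since both groups carried the deletion and received a NEXN vector, these values check no label.

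**Figure D1:**
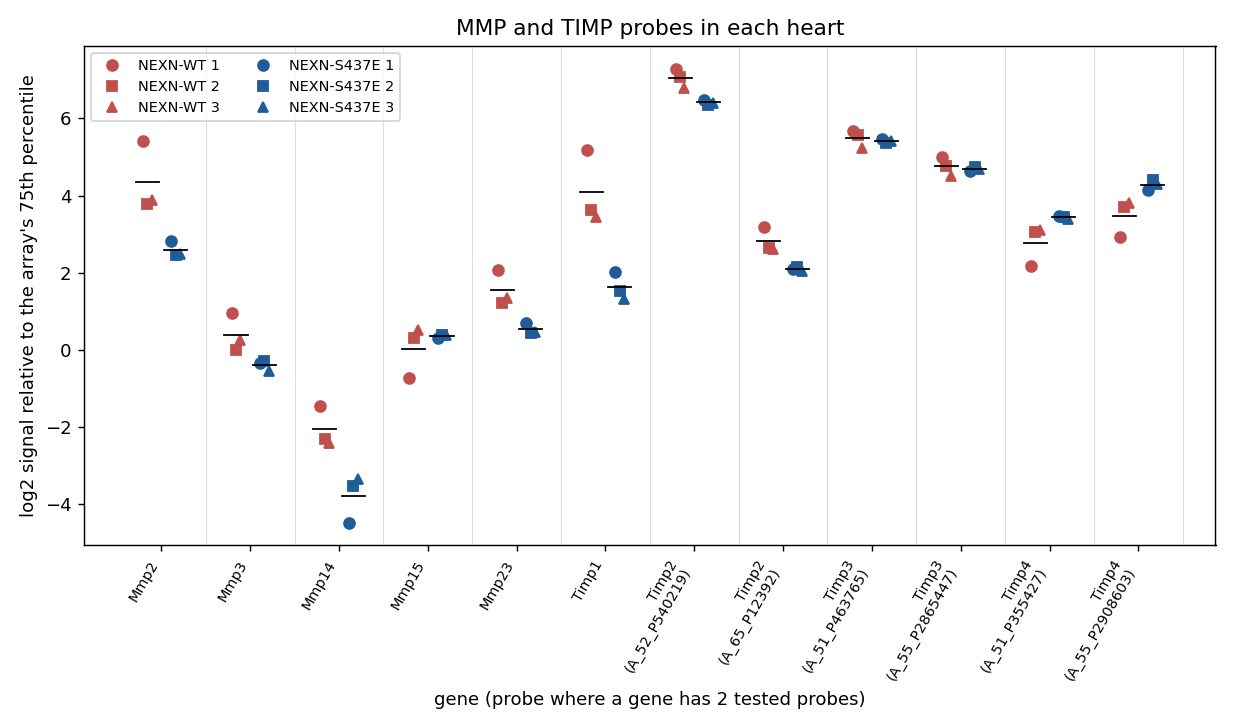
Log2 signal of each tested MMP and TIMP probe (y axis, relative to the 75th percentile of the array) in each of the 6 hearts, with NEXN-WT in red, NEXN-S437E in blue, a symbol per replicate and a line at each group mean. NEXN-WT replicate 1 is the highest point for *Mmp2*, *Mmp3*, *Mmp14*, *Mmp23*, *Timp1*, *Timp2* and *Timp3* and the lowest for *Timp4* and *Mmp15*.

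*Mmp2* encodes MMP-2, or gelatinase A, which cuts denatured collagen and collagen IV. Its probe, A_51_P341736 at chr8:95376840-95376899, read 5.40, 3.77 and 3.88 in the NEXN-WT hearts and 2.81, 2.47 and 2.48 in the NEXN-S437E hearts. Every NEXN-S437E heart was below every NEXN-WT heart, and the gap between the groups was smaller than the distance between NEXN-WT replicate 1 and the other 2 of its group. The log2 fold change was -1.76 (SE 0.40, 95% confidence interval -2.69 to -0.83), a signal 3.40-fold lower, with an adjusted p of 0.133 in limma. It was -1.24 without NEXN-WT replicate 1.

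*Mmp9*, the other gelatinase, is best known from neutrophils and macrophages. Neither of its probes, A_52_P507214 at chr2:164780620-164780679 and A_66_P130121 with ends at chr2:164779091-164780300, was well above background on any of the 6 arrays. The raw intensities of the first were 2.81 to 6.47 and those of the second 2.93 to 14.4. No difference was measurable at this signal, and no fold change is given.

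*Mmp3* encodes stromelysin-1, which cuts proteoglycans and fibronectin and activates other MMP precursors. Probe A_51_P255699 at chr9:7455751-7455810 gave 0.95, -0.011 and 0.25 in NEXN-WT and -0.33, -0.29 and -0.55 in NEXN-S437E. The groups did not overlap, but the difference of -0.79 (SE 0.25) was 1.73-fold and short of the study's threshold, with an adjusted p of 0.200 in limma. Without NEXN-WT replicate 1 it was -0.51.

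*Mmp14*, the membrane-type enzyme that activates MMP-2, was dim. Its probe gave -1.46, -2.31 and -2.42 in NEXN-WT, where all 3 arrays were well above background, and -4.48, -3.54 and -3.36 in NEXN-S437E, where none was. The level in NEXN-S437E is therefore only bounded, where the transcript was at least 2.25-fold below NEXN-WT, or at least 1.83-fold without NEXN-WT replicate 1. This bound sets the mean of the NEXN-WT arrays against the lowest signal well above background, or the probe's own if higher, on each NEXN-S437E array. The fitted difference was -1.73 (SE 0.35), with an adjusted p of 0.110 in limma, and -1.43 without NEXN-WT replicate 1. Under another background correction (normexp, with an offset added to each spot) the difference shrank to -0.31 and was no longer past the study's thresholds.

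*Mmp23*, whose product is anchored by an N-terminal segment rather than at the C-terminus, was measured by the probe shown above. It read 2.06, 1.23 and 1.34 in NEXN-WT and 0.70, 0.44 and 0.47 in NEXN-S437E, again without overlap. The difference of -1.005 (SE 0.23, interval -1.54 to -0.47, adjusted p 0.134 in limma) was 2.01-fold and just past the 2-fold threshold. It fell short of it under 7 of 18 alternatives, at -0.74 without NEXN-WT replicate 1, -0.96 without NEXN-S437E replicate 2 and -0.97 without NEXN-S437E replicate 3.

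*Mmp15* encodes MT2-MMP, another membrane-type enzyme. Probe A_51_P220062 at chr8:97897703-97897762 gave -0.74, 0.30 and 0.51 in NEXN-WT and 0.32, 0.38 and 0.38 in NEXN-S437E. NEXN-WT replicate 1 lay below the other hearts, which lay close together. The difference was 0.34 with an interval of -0.36 to 1.04 (adjusted p 0.571 in limma), and it turned to -0.045 without that heart.

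*Timp1* encodes TIMP-1, an inhibitor that binds the MMP-9 precursor and most MMPs, and had the largest fitted difference among the members in the fit without blocks, although that of *Mmp14* is only bounded. The probe shown above read 5.19, 3.63 and 3.44 in NEXN-WT and 2.02, 1.52 and 1.33 in NEXN-S437E. All 3 NEXN-S437E hearts lay below all NEXN-WT hearts. The log2 fold change was -2.46 (SE 0.44, interval -3.47 to -1.45), which is 5.52-fold, with an adjusted p of 0.0838 in limma. The study's thresholds were passed under each of the 18 alternatives, with log2 fold changes of -2.79 to -1.91, and the adjusted p was below 0.05 under 4 of them. Among the 18, the slide row block set only NEXN-S437E replicate 1 against NEXN-WT. The value nearest to 0, -1.91, was that without NEXN-WT replicate 1.

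*Timp2* encodes the inhibitor that links the MMP-2 precursor to MT1-MMP, and was measured by 2 probes. Probe A_52_P540219 at chr11:118163146-118163205 gave 7.29, 7.07 and 6.78 in NEXN-WT and 6.49, 6.34 and 6.41 in NEXN-S437E. Probe A_65_P12392, printed above, gave 3.18, 2.65 and 2.62 against 2.09, 2.16 and 2.04. Both were lower in every NEXN-S437E heart than in any NEXN-WT heart. The differences were -0.63 (SE 0.17, 1.55-fold) and -0.73 (SE 0.18, 1.65-fold), short of 2-fold, with adjusted p of 0.158 and 0.148 in limma. Without NEXN-WT replicate 1 they were -0.51 and -0.54.

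*Timp3* encodes the inhibitor that stays bound to the matrix. Probe A_51_P463765 at chr10:85811696-85811755 read 5.69, 5.56 and 5.23 in NEXN-WT and 5.47, 5.38 and 5.41 in NEXN-S437E. The second, A_55_P2865447 at chr10:85812041-85812100, read 4.998, 4.77 and 4.51 against 4.64, 4.73 and 4.69. On both, the NEXN-S437E hearts lay within the range of the NEXN-WT hearts. They differed by -0.071 and -0.068, with intervals of -0.45 to 0.30 and -0.45 to 0.31 and adjusted p of 0.835 and 0.845 in limma, so that a fall or rise of 2-fold lies outside the intervals. Without NEXN-WT replicate 1 the sign turned, to 0.025 and 0.052. A further probe, A_55_P2715422 at chr10:85769407-85769466, was dim on every array and not tested.

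*Timp4* was the member with values higher in NEXN-S437E on both tested probes. Probe A_51_P355427 at chr6:115196120-115196179 gave 2.16, 3.05 and 3.11 in NEXN-WT and 3.47, 3.45 and 3.41 in NEXN-S437E. Probe A_55_P2908603 at chr6:115195840-115195899 gave 2.94, 3.70 and 3.80 against 4.14, 4.40 and 4.31. Neither overlapped between the groups, and NEXN-WT replicate 1 was the lowest heart on both. The differences were 0.67 (SE 0.25, 1.59-fold) and 0.80 (SE 0.24, 1.74-fold), with adjusted p of 0.248 and 0.190 in limma and 0.36 and 0.53 without that heart. The remaining probe, A_55_P2730556 at chr6:115196869-115196928, exceeded background on 1 NEXN-WT and 1 NEXN-S437E array and was not tested.

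**Figure D2:**
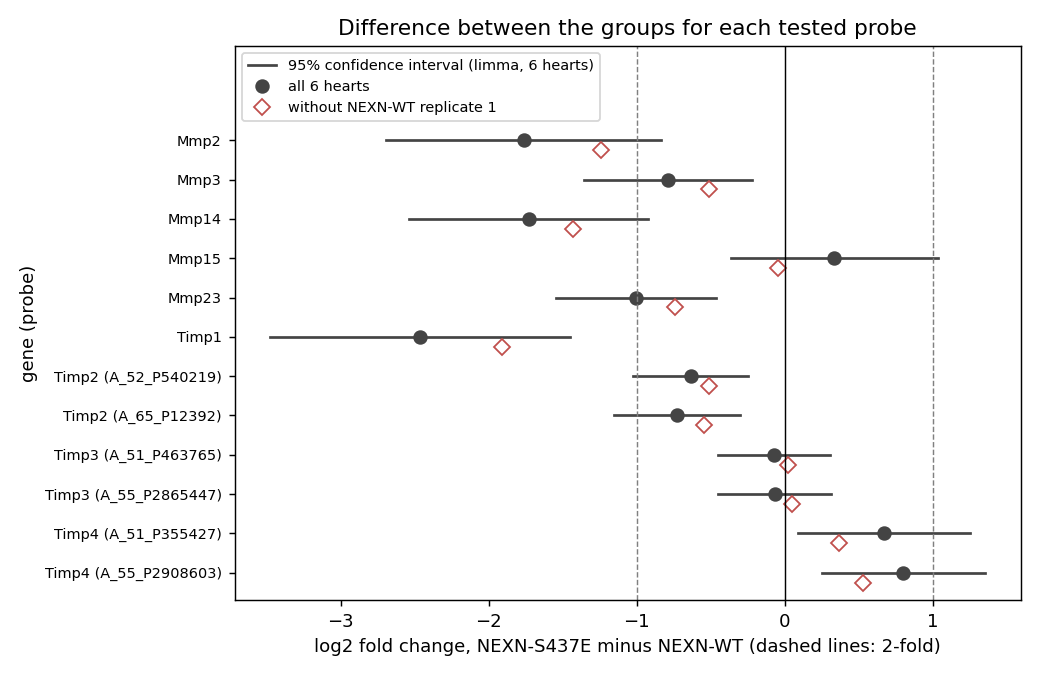
Log2 fold change, NEXN-S437E minus NEXN-WT (x axis), of each tested probe (y axis) with its 95% confidence interval from limma over 6 hearts (filled points), and the value without NEXN-WT replicate 1 (open diamonds). *Timp1* lies at -2.46, *Timp3* near 0 and *Timp4* at 0.67 and 0.80, and each diamond lies nearer to 0 than its point, those of *Timp3* and *Mmp15* on the other side of 0.

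Only part of each group difference could be seen within 1 row of the slide, since row 1 held all of NEXN-WT but 1 heart of NEXN-S437E. There the differences were -2.07 for *Timp1*, -1.54 for *Mmp2* and -0.84 for *Mmp23*, and 0.70 and 0.66 for the *Timp4* probes. These have the sign of the values over all hearts, but rest on 1 NEXN-S437E heart, and no p is given. The slide row block gives these same differences, so it is not a separate result. *Mmp14* was not above background in that heart, so no difference is given for it. The spread among the NEXN-WT hearts differed between the members. The SD of *Timp1* was 0.96 in NEXN-WT and 0.36 in NEXN-S437E, and that of *Mmp2* 0.91 and 0.20, while the NEXN-WT SD of the *Timp3* probes was 0.24 on each. The medians over all tested probes were 0.24 in NEXN-WT and 0.16 in NEXN-S437E.

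Whether the 4 TIMP genes moved by the same amount was asked within each array, which removes the scaling between arrays. The value of *Timp2*, *Timp3* or *Timp4*, each by its brightest tested probe, was subtracted from that of *Timp1*. Against *Timp3* the result was -0.49, -1.94 and -1.78 in NEXN-WT and -3.45, -3.85 and -4.09 in NEXN-S437E. Against *Timp2* it was -2.10, -3.45 and -3.34, and then -4.47, -4.82 and -5.08. Against *Timp4* it was 2.26, -0.072 and -0.36, and then -2.12, -2.87 and -2.98. The groups did not overlap in any of the 3, so *Timp1* stood lower relative to each other TIMP in every NEXN-S437E heart. The group means differed by -1.83 (pooled SD 0.57) for *Timp2*, -2.39 (0.61) for *Timp3* and -3.27 (1.07) for *Timp4*, and without NEXN-WT replicate 1 by -1.40, -1.94 and -2.44. With 3 hearts against 3, the two-sided exact permutation test cannot go below 0.1, and each comparison gave p = 0.1, also after Benjamini-Hochberg adjustment over the 3.

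**Figure D3:**
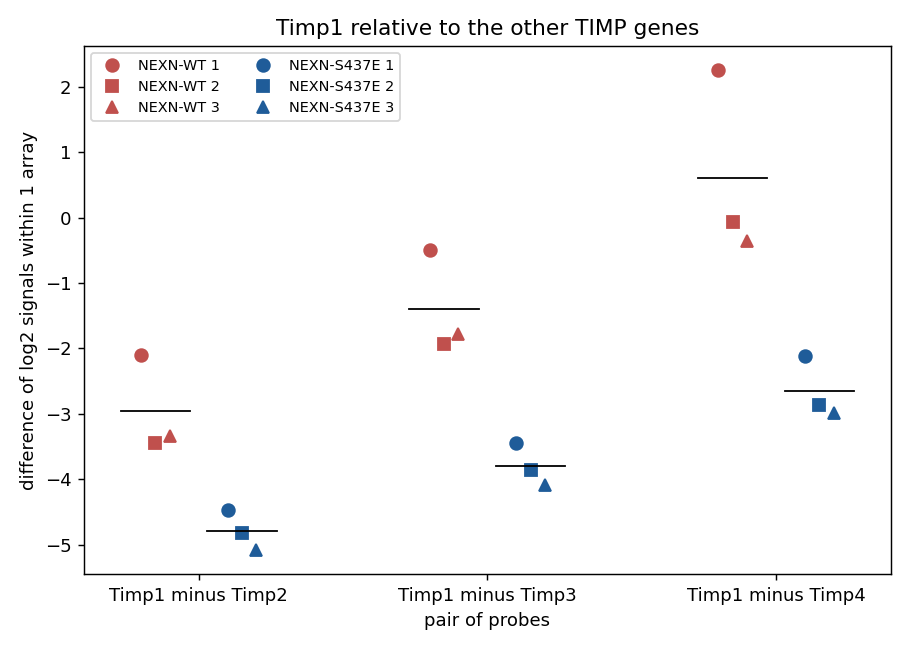
Difference between the log2 signal of *Timp1* and that of *Timp2*, *Timp3* or *Timp4* on the same array (y axis) for each of the 6 hearts, with a line at each group mean. All 3 NEXN-S437E hearts lie below all 3 NEXN-WT hearts in each pair, and the height of a pair carries no meaning because the probes differ.

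Across the 6 hearts, most members correlated closely with *Mmp2*, with a positive or a negative sign. The correlation with *Mmp2* was 0.997 for *Mmp23*, 0.99 for *Timp1*, 0.98 for *Mmp3* and 0.95 for *Timp2*, and -0.99 for *Timp4* and -0.80 for *Mmp15*. *Timp3* had the correlation nearest to 0, at 0.55. These are descriptions over 6 arrays that share the difference between the groups and the distance of NEXN-WT replicate 1. The 3 tested genes most like *Timp1* were *Igdcc4*, *Tmem43* and *Dapk2*, all with r of 0.999. For *Mmp2* they were *Fstl1*, *Serpinf1* and *Rab7b*, and for *Mmp23* they were *Csrp2*, *Gabra3* and *Mmp2* itself. *Mmp3* ran most closely with *H2-Eb1*, *Cyp4v3* and *Tgif2*, and *Timp2* with *Cyld*, *Clip3* and *Igsf8*. *Timp4* ran with *Gmnn*, *Gstk1* and *Ndufb4*, *Mmp15* with *Thtpa*, *Hras* and *Lpin1*, and *Timp3* with *Tmem30a*, *Xrn1* and *Uhrf1bp1l*.

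Promoter sequence was at hand for 8 of the 10 genes, from RefSeq on GRCm38.p6, in windows of 250 bases before to 50 after each annotated start. *Mmp2* and *Mmp9* were without one. The motifs searched were 3, on both strands: the AP-1 site TGANTCA, the GC box GGGCGG and the TATA sequence TATAAA, and none of them overlapped another in these windows. AP-1, a dimer of Fos and Jun proteins, is the classical activator of MMP genes. Among the members TGANTCA lay in the window of *Mmp3* and in no other (7.81% of all 32851 windows hold it), as did TATAAA (13.6%). GGGCGG lay in those of *Mmp14*, *Mmp15*, *Mmp23*, *Timp1*, *Timp2* and *Timp3* (35.7% of all windows), and *Timp4* had none of the 3. The 250 bases before the start of *Mmp3*, at chr9:7445572-7445821, and of *Timp1*, at chrX:20869916-20870165, both on the plus strand, are shown because both genes had lower values in every NEXN-S437E heart and their windows hold different motifs, which are in capitals. In *Mmp3* TGAGTCA begins 46 bases before the start and TATAAA 7 before it. In *Timp1* the GC box, on the opposite strand as CCGCCC, begins 8 bases before the start. A match says only that these letters are there.
Mmp3 promoter: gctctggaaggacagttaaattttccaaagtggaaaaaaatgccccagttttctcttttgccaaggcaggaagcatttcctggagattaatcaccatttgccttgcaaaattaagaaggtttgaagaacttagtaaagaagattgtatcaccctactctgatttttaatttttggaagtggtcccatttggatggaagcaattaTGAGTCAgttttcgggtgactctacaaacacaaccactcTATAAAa
Timp1 promoter: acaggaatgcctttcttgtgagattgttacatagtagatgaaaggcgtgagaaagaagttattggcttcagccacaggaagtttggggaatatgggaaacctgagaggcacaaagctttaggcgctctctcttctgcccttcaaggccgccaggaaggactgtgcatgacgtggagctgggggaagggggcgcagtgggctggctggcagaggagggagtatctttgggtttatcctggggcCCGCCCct

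The factors known to act on such promoters were followed as a list of 16 genes, of which 14 were tested. One of them, *Runx1*, a Runt-domain factor, was past the study's thresholds, at -1.55 (SE 0.35, adjusted p 0.132 in limma), and *Egr1*, at -0.86, and *Nfkb1*, at -0.46, had an unadjusted p below 0.05. The median difference was -0.20, against 0.068 over the 13747 tested genes, of which 2.18% were past the thresholds in the lower direction and 0.764% in the higher. At an unadjusted p below 0.05 alone, 8.02% of all tested genes were lower. The AP-1 genes differed little, with *Fos* at -0.18, *Jun* at 0.14 and *Junb* at -0.21, all with overlap. Of 15 ligands known to induce MMP or TIMP genes, 11 were tested and 2 were lower by the thresholds. They were *Tgfb3*, a TGF-beta ligand, at -1.34, and *Il1b*, an inflammatory cytokine, at -1.72 with overlapping groups and only 1 NEXN-S437E array well above background. Neither was past the thresholds without NEXN-WT replicate 1. *Tgfb3* was then at -0.96, short of 2-fold, and *Il1b* at -1.54 with an unadjusted p of 0.0737 in limma. The median of the ligands was 0.0018, or -0.11 without that heart, and 4 were lower with an unadjusted p below 0.05 (8.02% of all tested genes). The other 2 were *Tgfb2*, at -0.88, and *Osm*, for the cytokine oncostatin M, which was above background on no NEXN-S437E array. *Tgfb1* differed by 0.13 with overlap.

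Little else of the MMP family could be measured. Of the 17 other MMP genes on the array, 10 were not well above background on any array, and 4 were tested. *Mmp11* differed by -0.27, *Mmp17* by 0.076, *Mmp19* by -0.57 and *Mmp28* by -0.25, none with an unadjusted p below 0.05. Of 17 activators and cell-surface regulators, 14 were tested and 2 were lower by the study's thresholds, as were 2.18% of all tested genes. The median was -0.27 over the list, or -0.040 without NEXN-WT replicate 1. *Thbs1*, the matricellular thrombospondin-1, differed by -1.47 (SE 0.56), or -0.74 without NEXN-WT replicate 1, and *Pcsk5*, a proprotein convertase, by -1.04 (SE 0.34). Both fell short without that heart. The list held 4 lower genes and 1 higher with an unadjusted p below 0.05, beside 8.02% lower and 9.85% higher over all tested genes. The other lower ones were *Lrp1*, an endocytic receptor that takes up MMPs, at -0.87, and *Thbs2*, for thrombospondin-2, at -0.68, and the higher one was *Bsg*, which encodes the MMP inducer basigin, at 0.55. The furin gene was at 0.25 and *Reck*, a membrane-bound MMP inhibitor, at -0.19.

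Of 19 genes for matrix proteins that MMPs cut, 18 were tested. All 18 had lower means in NEXN-S437E, with a median of -1.24, as did 5683 of all 13747 tested genes. Of the 18, 14 were lower with an unadjusted p below 0.05 (8.02% of all tested genes). By the study's thresholds 9 were lower (2.18% of all tested genes). Without NEXN-WT replicate 1 the latter count was 7 (1.37% of all tested genes) and the median -0.67, and *Lamb1* turned to 0.090. The 9 include *Col5a2*, a fibrillar collagen chain that entered the test only through NEXN-WT and is known only to be lower by a factor of at least 3.04, or 1.60 without NEXN-WT replicate 1, and with the filter on all 6 arrays the count was 8. The chains of fibrillar collagen were among them, with *Col1a1* at -1.82, *Col1a2* at -1.50, *Col3a1* at -1.35 and *Col5a1* at -1.57. *Postn*, for the matricellular protein periostin, was at -2.98, and *Eln*, for elastin, at -2.18, and they were at -2.13 and -1.48 without that heart. The adjusted p of *Col3a1* and *Col1a1* was 0.0794 in limma, and none of the list was below 0.05. *Sparc* at -0.043 and *Dcn*, for decorin, at -0.087 were close to 0. Of the 11 ADAM and ADAMTS genes whose products TIMP-3 inhibits, 9 were tested. *Adamts2*, a procollagen N-proteinase, was at -1.52 and *Adamts4*, an aggrecanase, at -1.44, both past the thresholds with or without that heart, and the median was -0.49, or -0.32 without it.

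Markers of cell types were followed beside these genes. The mean of 7 markers of activated fibroblasts was 4.46, 2.39 and 2.24 in NEXN-WT and 0.15, 0.16 and 0.087 in NEXN-S437E, and 6 of the 7 were lower by the study's thresholds, as were 2.18% of all tested genes, or 1.37% without NEXN-WT replicate 1. The median difference over this list was -3.72, and without NEXN-WT replicate 1 it was -2.57 with the count still 6. Both of these medians are values of *Cthrc1*, which is among the 6 and entered the test only through NEXN-WT, with 1 NEXN-S437E array above background. *Comp*, for cartilage oligomeric matrix protein, was at -4.12 and *Cilp*, for a cartilage intermediate layer protein, at -3.81, or -3.23 and -3.24 without NEXN-WT replicate 1, while *Fap* was at -0.39 with overlap. The 8 general fibroblast markers averaged 4.05 to 4.69 in NEXN-WT and 3.63 to 3.75 in NEXN-S437E, with 2 of 8 lower by the thresholds, *Mfap5* and *Pi16*, and 1 of 8 without NEXN-WT replicate 1. The heart with the highest means of both lists was NEXN-WT replicate 1, which also had the highest *Timp1* and *Mmp2*. The 10 cardiomyocyte markers averaged 6.91 to 7.31 in NEXN-WT and 7.50 to 7.63 in NEXN-S437E, all 10 with higher means in NEXN-S437E, as were 58.7% of all tested genes, and none past 2-fold, and their lowest heart was also NEXN-WT replicate 1, as for *Timp4*. In whole myocardium, fewer cells of a type and less RNA per cell cannot be told apart, and the part of cell composition in the MMP and TIMP values was not tested.

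Other cell types moved less or in other genes. None of the 10 macrophage, 7 endothelial or 8 smooth muscle and pericyte markers was past the study's thresholds, and the ranges of their means overlapped between the groups. Among T cell markers 3 of 5 were lower by the thresholds, *Cd3d*, *Cd3g* and *Lck*, as were 2.18% of all tested genes. Each was also past the adjusted p in limma, as were 29 of all 13747 tested genes. *Cd3e*, at -0.55, and *Cd4*, at 0.22, overlapped between the groups. The list means were -1.12 to -0.69 in NEXN-WT and -2.52 to -2.32 in NEXN-S437E. *Cd3g* entered the test only through NEXN-WT, since no NEXN-S437E heart was above background for it, and its signal in those hearts was lower by a factor of at least 2.19. Without it 2 of 4 were lower, and the list means were -0.83 to -0.37 and -1.89 to -1.62. Among neutrophil markers 3 of 7 and among B cell markers 1 of 4 could be tested, and none was past the thresholds. The mean of the neutrophil markers was 2.26 in NEXN-S437E replicate 1 and 0.29 to 1.19 in the other hearts. The 2 *Mmp9* probes, neither above background, differed in their highest heart. A_66_P130121 was highest in that same heart, at a raw 14.4. A_52_P507214 was highest in NEXN-S437E replicate 3, at 6.47, and read 2.82 in replicate 1. Of the atrial markers only *Myl4* was tested, at -0.63, so the lists do not show how much atrium each sample held.

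**Figure D4:**
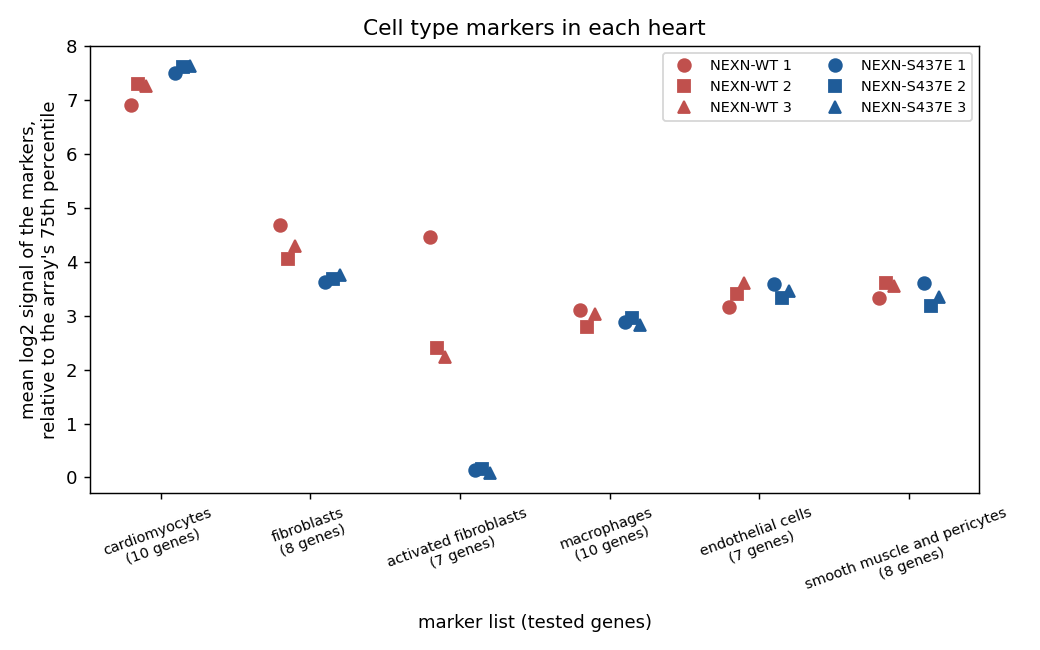
Mean log2 signal of the tested genes of 6 marker lists (y axis, relative to the 75th percentile of the array) in each of the 6 hearts. The activated fibroblast mean is 2.24 to 4.46 in NEXN-WT and 0.087 to 0.16 in NEXN-S437E, and the macrophage, endothelial and smooth muscle means overlap between the groups.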

How the data were processed

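Per the labels and file headers, the authors scanned 6 single-colour Agilent arrays and extracted background-subtracted intensities with Feature Extraction 10.7.1.1, not normalized between arrays. The normalized log2 values that they also deposited have identical distributions in all 6 columns. Their normalization is not given in the sources used here. Probe positions are on mm9.

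The signals were put on the log2 scale without control and outlier spots, relative to the array's 75th percentile, with the spots of a probe averaged. A probe entered the test if a whole group exceeded background by the scanner software's flag, which left 22998 probes. No spot was saturated, and the number of arrays limits the precision. Groups were compared with limma 3.58.1 (lmFit, eBayes) in R 4.3.3, with Benjamini-Hochberg adjustment over all 22998, and the code was tested on simulated data. Lists used the brightest tested probe of each gene. All member probes, pathway list genes past a threshold (at most 6 per list) and the 3 genes most like each member were named by rule. Marker genes were named as needed to give levels, and not every one past a threshold is named. *Egr1*, *Nfkb1*, *Lrp1*, *Thbs2*, *Tgfb2*, *Osm*, *Col5a2*, *Lamb1*, *Cd3e*, *Cd4*, *Fos*, *Jun*, *Junb*, *Tgfb1*, *Bsg*, *Fap*, the furin gene, *Reck*, *Sparc* and *Dcn* were chosen after their values were seen. The members and lists were chosen with earlier results of these data known.

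Alternatives were the deposited log2 values, quantile normalization, normexp (offset 50), a percentile over detected probes, other filters, outlier spots kept, the methods' t-test, an intensity trend, array weights, blocks for replicate number and slide row, and each array left out. The slide row block sets only NEXN-S437E replicate 1 against NEXN-WT, whose arrays were all in row 1. Replicate numbers came from titles. Deviations of same-numbered hearts correlated at -0.15, -0.03 and -0.18, and those of differently numbered hearts at -0.07 to 0.18. No pairing by number was seen, but deviations within a group of 3 are not independent, so a pairing is not excluded. Figures used Python with matplotlib.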

Additional observations from a re-analysis of the deposited data

How the results depend on the processing

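The 4 member probes past the study's thresholds were 2 under normexp and 3 to 4 with 1 heart left out. The count past the adjusted p, 0, became 1 with an intensity trend, 8 with array weights (7 of them lower, where 18.2% of all tested probes passed), and 1 with the replicate number as a block, though no pairing by number was seen, and it was 0 to 2 with 1 heart left out. *Mmp14* was at -0.31 under normexp, and without NEXN-WT replicate 1 *Mmp15* turned to -0.045 and the *Timp3* probes to 0.025 and 0.052, the ends of ranges, with 1 heart left out, of -0.045 to 0.58 for *Mmp15* and of -0.20 to 0.025 and -0.19 to 0.052 for *Timp3*. The *Timp3* probes were at -0.27 and -0.24 under quantile normalization and on the deposited log2 values, and at -0.22 and -0.27 under normexp. *Mmp23* also fell short of 2-fold at -0.94 under normexp, -0.9997 with outlier spots kept, -0.79 with array weights and -0.84 with a slide row block. The 16 genes of the pathway lists past the study's thresholds became 10 under normexp and 10 to 20 with 1 heart left out. Over all probes, the 581 past the study's thresholds became 183 under normexp, 2250 with no filter on dim probes and 348 with the filter on all 6 arrays, and 364 to 899 with 1 heart left out. The 39 past the adjusted p became 24, 7 and 20 under these settings, 0 with the methods' t-test, 78 with an intensity trend, 4177 with array weights and 15 with a slide row block, and 12 to 130 with 1 heart left out. The percentile over detected probes moved the median of all differences by -0.11 and changed no member's direction or call. With no filter, a *Mmp9* probe that was above background nowhere passed the study's thresholds, as a value below background. Where no cause is named, the cause was not tested. The dimness of *Mmp14* and *Mmp9* limits both.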
